A study of Mus musculus with 4 samples.

Results

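Type I interferon-stimulated genes are the genes that a cell transcribes when interferon alpha or beta binds its receptor, and 44 of them were described across bulk RNA sequencing libraries of splenic natural killer (NK) cells. They were taken by name from a list of effectors, sensors and regulators of the response, with guanylate-binding, immunity-related GTPase, p200, interferon regulatory factor and MHC genes left out. All 44 were found among the 35275 genes of the deposited tables. A mean of at least 1 CPM, the counts of a gene scaled to the total of its library, was reached by 40 of them, against 11870 genes in all, and the summaries are over those 40. The 4 below that level were Ifit3b, Oas1g, Oas2 and Phf11d, with 0.0932 to 0.637 CPM on average.

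The cells were sorted as CD3-negative and NK1.1-positive from the spleens of mice, either wild-type C57BL/6 (WT) or labelled Irf4-/-, for loss of the transcription factor IRF4. There were 4 groups with 1 library each: Irf4-/- injected and WT injected mice, given B16-F10 melanoma cells into a vein 20 days earlier, and Irf4-/- control and WT control mice, which were not injected. Total counts lay between 15878159 and 21104881. The sources used here give neither the number of mice behind a library nor the structure of the Irf4 allele. Irf4 itself was at 12.7 CPM in Irf4-/- injected against 3.07 in WT injected, and at 11.8 CPM in Irf4-/- control against 4.40 in WT control. The targeted gene therefore ran against the label, and every direction given for genotype is that of the libraries labelled Irf4-/- relative to the libraries labelled WT.

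With 1 library per group, a ratio between 2 libraries compares those libraries and has no test. Each log2 ratio is given with a 95% interval that covers counting error of reads only, and no spread between libraries of a group. Reads amplified by PCR and carrying no molecular identifier can be copies of 1 molecule. The interval can thus be too narrow even for the counting error of molecules. Tests come from an additive model over all 4 libraries (edgeR's quasi-likelihood test), in which the spread is only how far the libraries depart from additivity, and "rose" and "fell" are used of that test alone. Sums of the 10 NK cell markers ranged from 11302 CPM (WT injected) to 13623 CPM (Irf4-/- control). Of 6 melanoma markers 4 (Mlana, Tyr, Dct and Tyrp1) had no count in any library.

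In the interferon pathway, IFNAR1 and IFNAR2 form the receptor, the kinases JAK1 and TYK2 act below it, and the factor ISGF3, which holds STAT2 and IRF9, binds a GAAA-rich element in the promoters of its targets. The targets sense viral nucleic acid, block steps of viral growth, carry the response further or limit it. In NK cells, type I interferon is known for raising cytotoxicity and proliferation.

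The GAAA-rich element can be read in the promoters of the members themselves. The letters GAAA, any 2 bases and GAAA again were searched on both strands of RefSeq promoters (GRCm38.p6, 250 bases before to 50 after the start site), where a second motif, TTCNNNGAA, was searched too. Of the 35 members with an entry, 18 held the GAAA motif, or 51.4%, against 1079 of 27025 genes with an entry, or 3.99%. TTCNNNGAA was in 8 of the 35, or 22.9%, against 9.55% of all. The 6 stretches that follow run from -170 to 20 relative to the start site, 5′ to 3′ on the gene's strand. Isg15, Oas3 and Ifit3 are shown as members with low ratios after injection in the WT pair, Slfn5 as the one with a high ratio, and Oas1a and Ifit1 as cluster neighbours of Oas3 and Ifit3. Capitals mark the GAAA motif, or its reverse complement in Ifit3 and Ifit1.
Isg15 (chr4:156200799-156200988, minus strand): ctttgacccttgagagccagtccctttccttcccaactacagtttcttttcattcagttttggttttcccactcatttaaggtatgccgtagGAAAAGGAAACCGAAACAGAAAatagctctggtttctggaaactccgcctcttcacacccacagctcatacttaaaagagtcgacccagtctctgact
Oas3 (chr5:120777640-120777829, minus strand): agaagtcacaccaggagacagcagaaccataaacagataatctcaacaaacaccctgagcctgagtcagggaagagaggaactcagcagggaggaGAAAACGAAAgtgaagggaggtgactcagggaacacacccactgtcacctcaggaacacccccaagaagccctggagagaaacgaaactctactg
Oas1a (chr5:120907506-120907695, minus strand): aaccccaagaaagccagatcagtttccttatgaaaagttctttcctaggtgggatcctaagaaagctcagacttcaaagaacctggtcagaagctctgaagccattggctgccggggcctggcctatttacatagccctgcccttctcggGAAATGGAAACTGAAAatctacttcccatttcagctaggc
Slfn5 (chr11:82951932-82952121, plus strand): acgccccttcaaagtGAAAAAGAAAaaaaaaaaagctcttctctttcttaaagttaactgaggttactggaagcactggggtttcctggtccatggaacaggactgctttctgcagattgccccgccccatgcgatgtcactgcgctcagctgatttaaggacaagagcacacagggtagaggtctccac
Ifit3 (chr19:34583359-34583548, plus strand): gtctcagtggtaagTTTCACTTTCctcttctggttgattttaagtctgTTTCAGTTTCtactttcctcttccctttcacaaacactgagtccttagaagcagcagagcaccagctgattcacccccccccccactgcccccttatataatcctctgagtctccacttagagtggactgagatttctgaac
Ifit1 (chr19:34640719-34640908, plus strand): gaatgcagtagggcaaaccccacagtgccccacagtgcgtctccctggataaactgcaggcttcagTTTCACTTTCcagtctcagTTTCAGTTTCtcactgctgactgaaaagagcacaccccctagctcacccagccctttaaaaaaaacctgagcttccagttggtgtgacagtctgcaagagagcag
Isg15 held 3 overlapping matches from position -78, and Oas1a 2 overlapping matches from position -20. Oas3 and Slfn5 held 1 match each, from -75 and -155, and that of Slfn5 runs into a stretch of A. Ifit3 and Ifit1 held 2 separate matches each on the opposite strand. A match describes these letters and not a bound site. The 16 members with a match and at least 1 CPM had a median log2 ratio with injection of -0.25 in the Irf4-/- pair and -0.27 in the WT pair, and the 16 without a match had -0.19 and -0.29.

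Levels per length of transcript, in the deposited FPKM (counts scaled to gene length and library total), spanned several orders of magnitude among the members. Sp100, a scaffold of PML nuclear bodies, was highest, with 171 FPKM in Irf4-/- injected and also in WT injected, 191 FPKM in Irf4-/- control and 188 FPKM in WT control. Lgals3bp, a secreted galectin-binding glycoprotein, followed with 82.3, 75.1, 77.5 and 71.5 FPKM in the same order of libraries. Samd9l, a restrictor of virus and cell growth, had 69.0, 62.6, 80.1 and 85.2 FPKM. In that order only Sp100 above Lgals3bp, Samd9l above Trim30a and Oasl2 above Rsad2 had ranges over the 4 libraries that did not overlap, and all other neighbours could not be ordered. Trim30a, which in mice limits signalling from Toll-like receptors, had 44.5, 36.8, 48.9 and 44.8 FPKM. Ddx58, which encodes the RNA sensor RIG-I, had 38.3, 36.1, 41.6 and 44.6 FPKM. Classical effectors lay lower: Isg15 averaged 9.53 FPKM, Mx1 6.16, Ifit1 1.53 and Rsad2 0.601, and Oas1g was lowest at 0.0471. None of these classical effectors was thus among the 5 highest members.

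**Figure D1:**
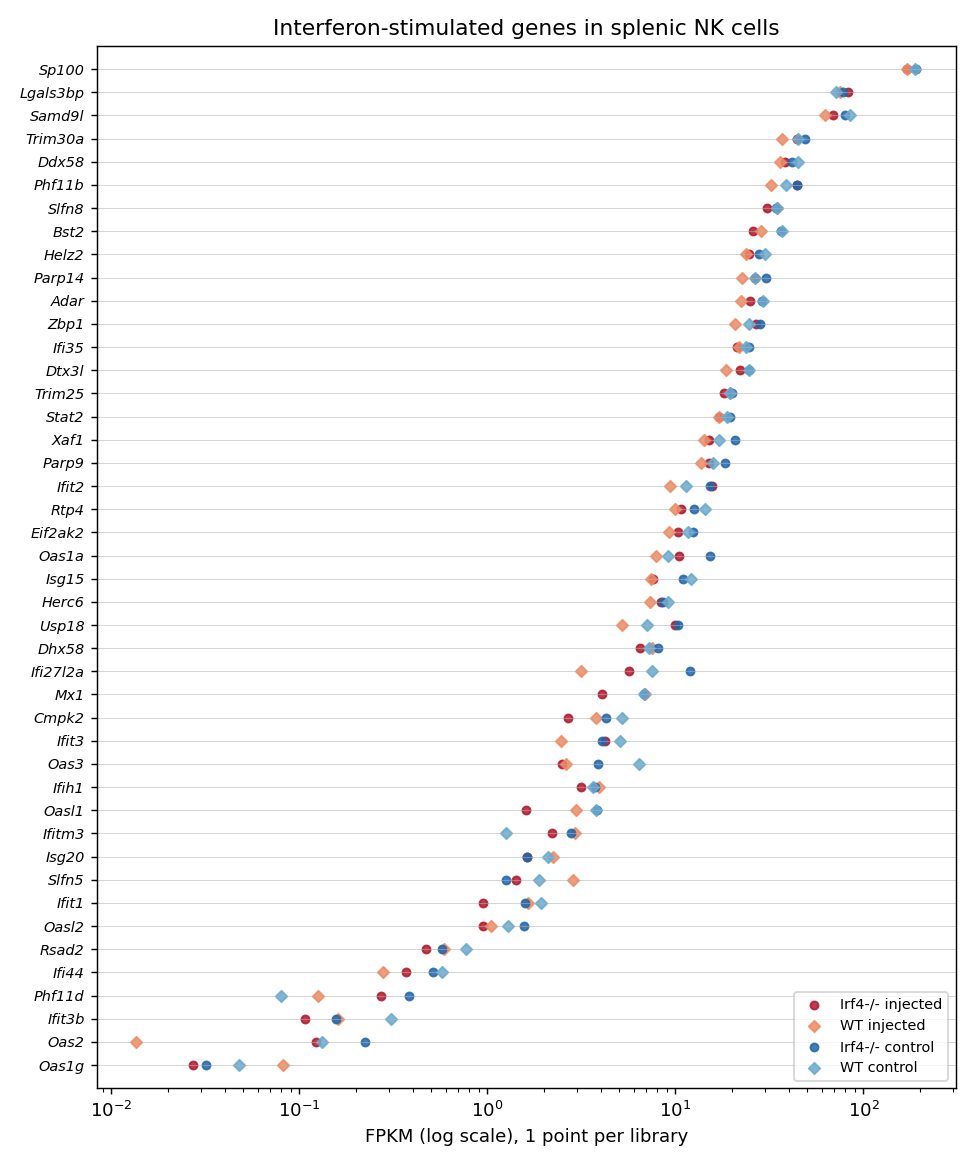
Deposited FPKM (log axis) of the 44 interferon-stimulated genes, ordered by mean, with 1 point for each of the 4 libraries. Sp100 stands alone at 171 to 191 FPKM, and for most other members the 4 points lie within the range of their neighbours.

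After B16-F10 injection most interferon-stimulated genes were lower, by small amounts, in both genotypes. In the libraries labelled Irf4-/- the median log2 ratio of injected over control was -0.21 over the 40 members, against 0.0011 over all genes, and 34 of 40 lay below 0, against 49.7% of all genes. In WT libraries the median was -0.28, against -0.00085 over all genes, and 32 of 40 lay below 0, against 50.1%. The counting interval lay below 0 for 27 members in the Irf4-/- pair (19.0% of all genes) and for 26 in the WT pair (28.0%), and above 0 for 1 (18.7%) and 3 (28.4%). Members at least 1.5-fold lower numbered 7 in the Irf4-/- pair (2.82% of all genes) and 5 in the WT pair (5.93%), and those at least 1.5-fold higher numbered 0 (2.91%) and 2 (7.15%). The members at 1.5-fold or more were few, so that the shift of the list rested on many ratios of modest size.

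The injection pairs of the 2 genotypes share no library. Both lay below 0 for 29 of 40 members, or 72.5%, against 30.6% of all genes. In 18 members, or 45%, both counting intervals lay below 0, against 10.1% of all genes. Among the 23 members of at least 20 CPM this held for 13, or 56.5%, against 12.3% of all genes at that level, and among the 17 members from 1 to 20 CPM it held for 5, against 6.68%. The shift was therefore not limited to members with few reads. Lgals3bp was the 1 member with both intervals above 0 (9.23% of all genes), at 0.09 (0.02 to 0.16) in the Irf4-/- pair and 0.08 (0.01 to 0.15) in the WT pair. Summed over all 44 members, the level was 3128 CPM in Irf4-/- injected against 3515 in Irf4-/- control, and 2942 CPM in WT injected against 3451 in WT control. Fewer cells that transcribe these genes and less RNA of them per cell cannot be told apart in bulk libraries.

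**Figure D2:**
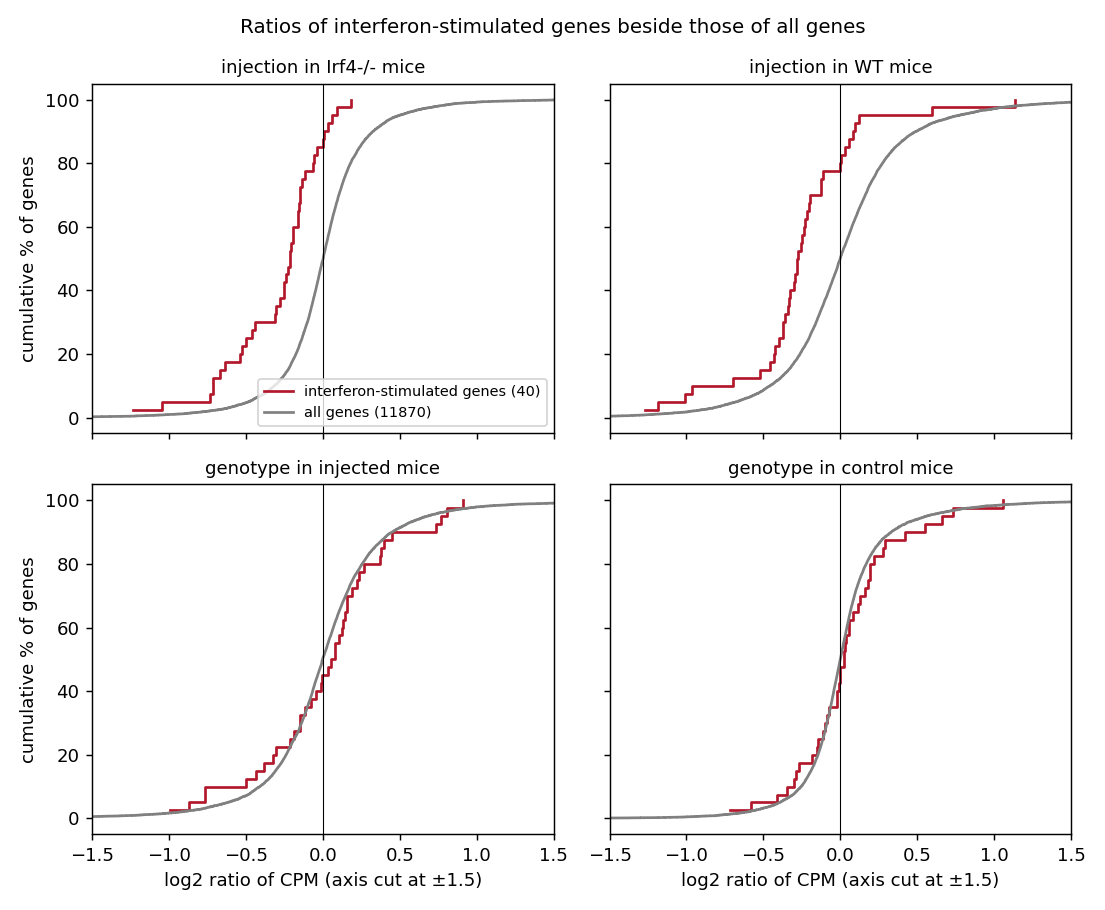
Cumulative share of genes (y axis, percent) by log2 ratio of CPM (x axis, cut at ±1.5) for the 40 interferon-stimulated genes and all 11870 genes of at least 1 CPM, in 4 pairs of libraries. In both injection panels the members' curve lies left of that of all genes (medians -0.21 and -0.28), and in both genotype panels the curves lie close together (medians 0.07 and 0.02).

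Oas3 was the 1 member of 40 that fell with injection in the additive model, against 0.392% of the 11998 genes tested. It encodes an oligoadenylate synthetase, which on binding double-stranded RNA makes the messenger that activates RNase L, and lies at chr5:120753098-120777661 (GRCm38, minus strand, ENSMUSG00000032661). It was at 11.7 CPM in Irf4-/- injected against 18.3 in Irf4-/- control, and at 12.4 CPM in WT injected against 30.1 in WT control. Both injected libraries thus lay below both control libraries, with WT control the highest of the 4. It fell by 0.97 on the log2 scale with an SE of 0.185 (edgeR's quasi-likelihood test, Benjamini-Hochberg adjusted p = 0.0468). The adjusted p was 0.050 with DESeq2 and 0.0453 with limma-voom, so the call sits at the threshold. No member rose by edgeR (0.333% of genes tested), DESeq2 (0.283%) or limma-voom (0.317%). At an unadjusted p under 0.05 edgeR had 15 members lower and 0 higher, against 6.84% and 7.33% of genes tested; DESeq2 had 4 lower (3.18%) and limma-voom 16 (6.86%). The median edgeR injection effect over the 40 members was -0.24, against 0.0031 over all genes tested.

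The other 3 genes of this family with at least 1 CPM (Oasl1, Oas1a and Oasl2) had ratios below 0 in both pairs as well. Oasl1, which in mice represses translation of IRF7, was at 3.49 CPM in Irf4-/- injected against 8.36 in Irf4-/- control, and at 6.47 CPM in WT injected against 8.22 in WT control. Its log2 ratio was -1.24 (-1.71 to -0.82) in the Irf4-/- pair, the lowest of any member there, and -0.34 in the WT pair, and its additive effect of -0.77 had an adjusted p of 0.231 by edgeR. Oas1a, like Oas3 a synthetase, was at 19.7 CPM in Irf4-/- injected against 28.8 in Irf4-/- control, and at 14.9 CPM in WT injected against 17.3 in WT control. Its ratio excluded 0 in the Irf4-/- pair, at -0.54 (-0.75 to -0.34), and not in the WT pair, at -0.21 (-0.44 to 0.02). Oasl2 was at 2.95 CPM in Irf4-/- injected against 4.90 in Irf4-/- control, and at 3.29 CPM in WT injected against 4.02 in WT control. The median log2 ratio of the 4 measured genes of this family was -0.67 in the Irf4-/- pair and -0.31 in the WT pair. Oas2 had 9 counts in Irf4-/- injected against 14 in Irf4-/- control and 1 in WT injected against 11 in WT control, and Oas1g had 1 to 3 counts in every library. Reads of Oas1a are uncertain, since 57.6% of its 50-base stretches also occur in Oas1g.

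The IFIT proteins bind foreign RNA and keep it from translation, and the 4 IFIT genes among the members lie near each other on chromosome 19. Ifit3 was at 7.40 CPM in Irf4-/- injected against 7.10 in Irf4-/- control, and at 4.31 CPM in WT injected against 8.79 in WT control. The WT injected library was thus the low one, and the log2 ratio was 0.06 (-0.31 to 0.43) in the Irf4-/- pair and -1.01 (-1.42 to -0.64) in the WT pair. Ifit2, whose product binds AU-rich RNA, was at 59.7 CPM in Irf4-/- injected against 58.2 in Irf4-/- control, and at 35.8 CPM in WT injected against 43.5 in WT control. Ifit1 had its clearer ratio in the Irf4-/- pair, at 2.52 CPM in Irf4-/- injected against 4.21 in Irf4-/- control and 4.37 CPM in WT injected against 5.10 in WT control. Its ratio was -0.72 (-1.31 to -0.18) in the Irf4-/- pair and -0.22 (-0.66 to 0.20) in the WT pair. Ifit3b had 4 to 13 counts in each library, and 51.2% of the 50-base stretches of Ifit3 also occur in it, so reads may be split between them.

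ISG15 is a ubiquitin-like protein that is attached to other proteins, in mice by the ligase HERC6, and removed by USP18, which also restrains the interferon receptor. Isg15 was at 5.74 CPM in Irf4-/- injected against 8.29 in Irf4-/- control, and at 5.61 CPM in WT injected against 9.17 in WT control. Both injected libraries lay below both controls, with log2 ratios of -0.52 (-0.91 to -0.15) in the Irf4-/- pair and -0.70 (-1.07 to -0.36) in the WT pair. The additive effect was -0.62 with an adjusted p of 0.242 by edgeR. Usp18 was at 17.5 CPM in Irf4-/- injected against 18.3 in Irf4-/- control, and at 9.27 CPM in WT injected against 12.5 in WT control. Herc6 was at 44.2 CPM in Irf4-/- injected against 45.5 in Irf4-/- control, and at 38.8 CPM in WT injected against 47.8 in WT control. Both had an interval below 0 in the WT pair and one that included 0 in the Irf4-/- pair. Trim25, a ligase that acts on RIG-I, had ratios of -0.15 (-0.24 to -0.05) in the Irf4-/- pair and 0.01 (-0.08 to 0.09) in the WT pair.

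Among the nucleic acid sensors and RNA-modifying enzymes, the abundant members moved by small and precise amounts. Ddx58 was at 149 CPM in Irf4-/- injected against 161 in Irf4-/- control, and at 141 CPM in WT injected against 172 in WT control. Adar, the enzyme that edits adenosine in double-stranded RNA, was at 148 CPM in Irf4-/- injected against 171 in Irf4-/- control, and at 132 CPM in WT injected against 171 in WT control. Its ratios were -0.21 (-0.29 to -0.13) in the Irf4-/- pair and -0.37 (-0.45 to -0.30) in the WT pair. Eif2ak2, the gene of the kinase PKR, had ratios of -0.26 (-0.40 to -0.12) in the Irf4-/- pair and -0.33 (-0.47 to -0.20) in the WT pair. Both injected libraries thus lay below both controls in Ddx58, Adar and Eif2ak2. Ifih1 and Dhx58, which encode the sensors MDA5 and LGP2, did not share this. Ifih1 was at 17.2 CPM in Irf4-/- injected against 20.3 in Irf4-/- control, and at 21.6 CPM in WT injected against 19.9 in WT control. Dhx58 was at 15.7 CPM in Irf4-/- injected against 19.5 in Irf4-/- control, and at 18.2 CPM in WT injected against 17.4 in WT control. For both genes the interval lay below 0 in the Irf4-/- pair and included 0 in the WT pair. Zbp1, a sensor of nucleic acid in the left-handed form, had ratios of -0.06 (-0.16 to 0.04) in the Irf4-/- pair and -0.24 (-0.34 to -0.13) in the WT pair.

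**Figure D3:**
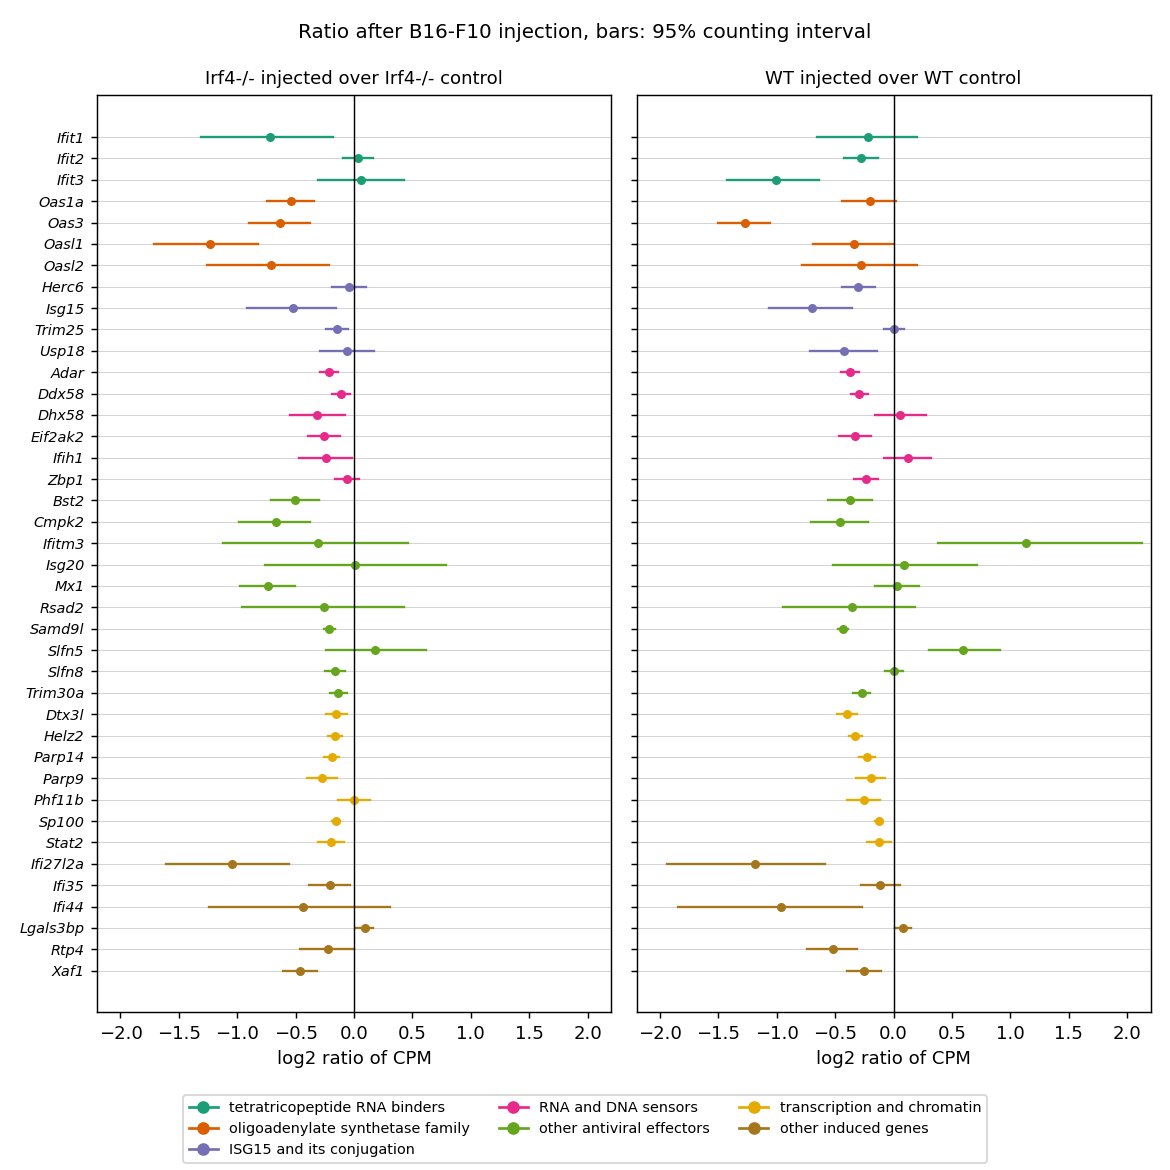
Log2 ratio of CPM, injected over control, for the 40 interferon-stimulated genes in the Irf4-/- pair (left) and the WT pair (right), coloured by role, with 95% counting intervals as bars. Most points lie left of 0 in both panels, Oasl1 is lowest in the Irf4-/- panel and Oas3 in the WT panel, and Slfn5 and Ifitm3 lie right of 0 in the WT panel.

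Among the other antiviral effectors, Cmpk2, a mitochondrial nucleotide kinase, was at 8.53 CPM in Irf4-/- injected against 13.6 in Irf4-/- control, and at 12.1 CPM in WT injected against 16.6 in WT control. Its ratios were -0.67 (-0.98 to -0.38) in the Irf4-/- pair and -0.46 (-0.71 to -0.22) in the WT pair. Rsad2 encodes viperin, which makes a chain-terminating nucleotide, and is the neighbour of Cmpk2 on chromosome 12. At 37 to 68 counts per library, both its intervals included 0. Mx1, a GTPase that traps viral ribonucleoprotein, was at 13.8 CPM in Irf4-/- injected against 23.0 in Irf4-/- control, and at 23.6 CPM in WT injected against 23.1 in WT control. The Irf4-/- injected library stood alone below the other 3, with a ratio of -0.73 (-0.97 to -0.50) in the Irf4-/- pair and 0.03 (-0.16 to 0.22) in the WT pair. Samd9l was at 368 CPM in Irf4-/- injected against 426 in Irf4-/- control, and at 335 CPM in WT injected against 453 in WT control. Bst2 encodes tetherin, which holds budding virions at the cell surface. It was at 19.6 CPM in Irf4-/- injected against 27.8 in Irf4-/- control, and at 21.8 CPM in WT injected against 28.2 in WT control. Both injected libraries thus lay below both controls in Samd9l and Bst2.

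Slfn5, a member of the Schlafen family that binds nucleic acid, was higher after injection in the WT pair, unlike most members. It was at 5.79 CPM in Irf4-/- injected against 5.09 in Irf4-/- control, and at 11.6 CPM in WT injected against 7.66 in WT control. The WT injected library was the highest of the 4, with a ratio of 0.18 (-0.24 to 0.62) in the Irf4-/- pair and 0.60 (0.30 to 0.91) in the WT pair. Its relative Slfn8 had ratios of -0.17 (-0.25 to -0.08) in the Irf4-/- pair and -0.00047 (-0.08 to 0.08) in the WT pair. Ifitm3, which blocks fusion of viruses with endosomes, had 28 counts in Irf4-/- injected against 30 in Irf4-/- control, and 37 in WT injected against 18 in WT control. Isg20, an exonuclease, had 28 to 48 counts per library and intervals that included 0 in both pairs. Trim30a was at 168 CPM in Irf4-/- injected against 184 in Irf4-/- control, and at 139 CPM in WT injected against 169 in WT control, with both intervals below 0.

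Regulators of transcription and chromatin shared a direction and moved little. Of 7 measured, 6 had a counting interval below 0 in the Irf4-/- pair (19.0% of all genes) and 7 in the WT pair (28.0%). Among the 7183 genes of at least 20 CPM, the level of these 7, it lay below 0 for 1616 and 2344. The medians of the 7 were -0.16 in the Irf4-/- pair and -0.23 in the WT pair. Sp100 was at 652 CPM in Irf4-/- injected against 727 in Irf4-/- control, and at 654 CPM in WT injected against 715 in WT control. Stat2, a subunit of ISGF3, was at 74.6 CPM in Irf4-/- injected against 85.5 in Irf4-/- control, and at 75.3 CPM in WT injected against 82.2 in WT control. The injected libraries lay below the controls in both genes, by 0.20 or less on the log2 scale. Parp14, Dtx3l and Parp9 lie next to each other on chromosome 16 and encode an ADP-ribosyltransferase family pair and the ubiquitin ligase that partners PARP9. Their ratios were -0.19, -0.15 and -0.28 in the Irf4-/- pair and -0.23, -0.40 and -0.20 in the WT pair, in that order of genes. Dtx3l and Parp9 overlap by 681 bases, and the sources used here do not say whether counting used strand. Helz2, a helicase that coactivates nuclear receptors, had ratios of -0.16 (-0.22 to -0.10) in the Irf4-/- pair and -0.33 (-0.38 to -0.27) in the WT pair. Phf11b, a PHD finger gene, was at 52.1 CPM in both libraries labelled Irf4-/-, and at 38.1 CPM in WT injected against 45.6 in WT control. Of its 50-base stretches 47.1% occur in other genes, and Phf11d, its neighbour, had 5 to 18 counts per library.

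The remaining members are induced by interferon and have less settled functions. Ifi27l2a, which encodes a small hydrophobic protein, was at 2.63 CPM in Irf4-/- injected against 5.53 in Irf4-/- control, and at 1.46 CPM in WT injected against 3.45 in WT control. It was lower by 1.5-fold or more in both pairs, as Oas3 was (1.20% of all genes), and its additive effect of -1.15 had an adjusted p of 0.138 by edgeR. Xaf1, which opposes the apoptosis inhibitor XIAP, was at 39.2 CPM in Irf4-/- injected against 53.9 in Irf4-/- control, and at 37.1 CPM in WT injected against 44.1 in WT control. Both injected libraries lay below both controls, at -0.46 (-0.61 to -0.32) in the Irf4-/- pair and -0.25 (-0.40 to -0.11) in the WT pair. Rtp4, a chaperone of receptor trafficking, was at 16.9 CPM in Irf4-/- injected against 19.8 in Irf4-/- control, and at 15.7 CPM in WT injected against 22.5 in WT control. Lgals3bp was at 192 CPM in Irf4-/- injected against 180 in Irf4-/- control, and at 176 CPM in WT injected against 166 in WT control. Ifi35, which binds the protein NMI, had ratios of -0.21 (-0.39 to -0.03) in the Irf4-/- pair and -0.11 (-0.28 to 0.05) in the WT pair. Ifi44, with 21 to 49 counts per library, had ratios of -0.44 (-1.25 to 0.31) and -0.97 (-1.84 to -0.27).

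**Figure D4:**
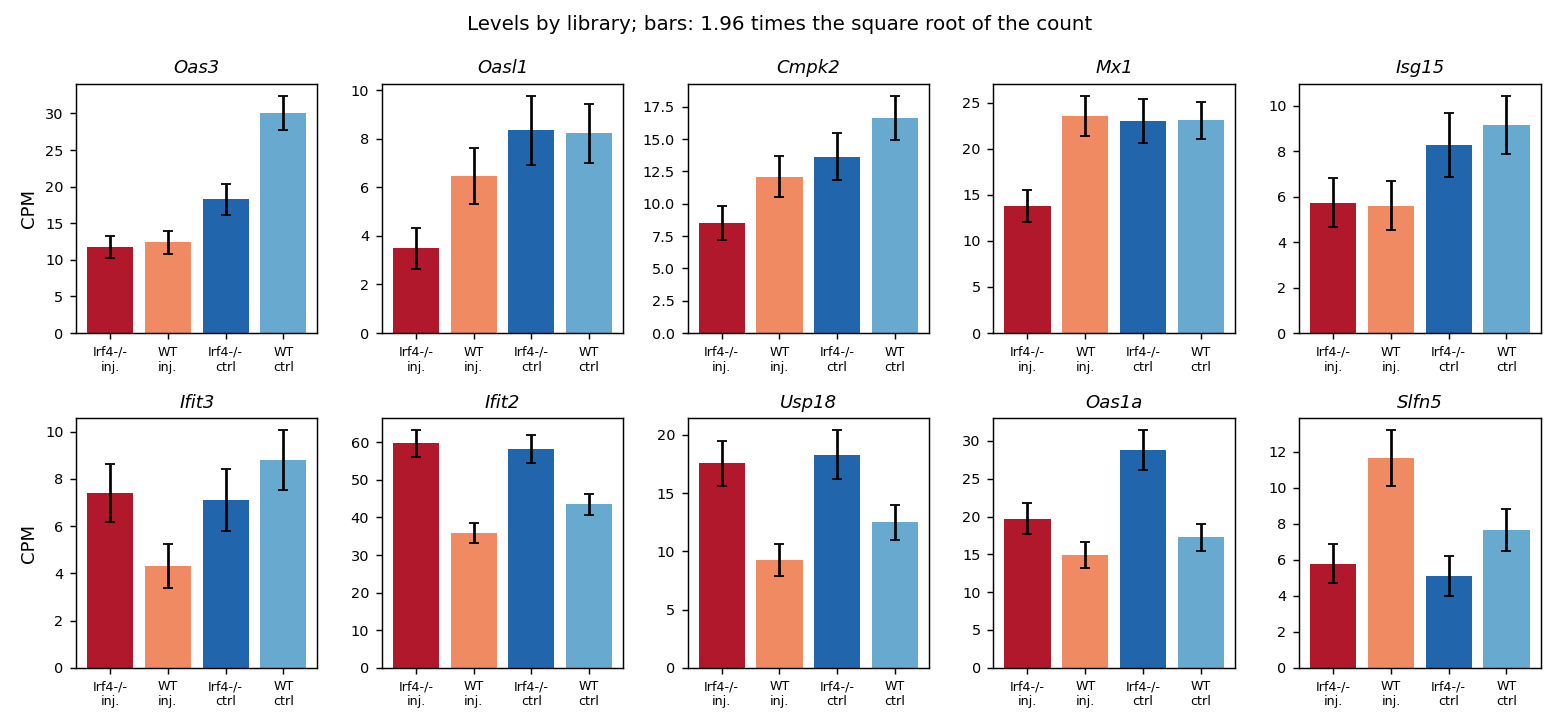
CPM of 10 interferon-stimulated genes in each of the 4 libraries, with error bars for a 95% counting interval from the square root of the count. Oas3 and Isg15 are lower in both injected libraries than in both controls, Mx1 and Oasl1 are lowest in Irf4-/- injected (13.8 and 3.49 CPM), and Ifit2 and Usp18 are higher in both Irf4-/- libraries than in both WT libraries.

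Markers of NK cells and of other cells differed with injection too. For the 10 NK cell markers the median log2 ratio was 0.06 in the Irf4-/- pair, with 6 intervals above 0 and 3 below. Their median was -0.17 in the WT pair, with 2 intervals above 0 and 7 below. All 6 B cell markers were lower after injection in both pairs, none was at 0, and their sum was 46.9 CPM in Irf4-/- injected against 64.5 in Irf4-/- control and 26.9 CPM in WT injected against 61.5 in WT control. Of 9 measured markers of monocytes and macrophages 8 were higher after injection in each pair, none of the 10 listed was at 0, and their sum was 58.9 CPM in Irf4-/- injected against 50.9 in Irf4-/- control and 67.8 CPM in WT injected against 32.1 in WT control. The 5 erythroid markers ran in opposite directions, with a sum of 94.8 CPM in Irf4-/- injected against 39.5 in Irf4-/- control and 16.8 CPM in WT injected against 32.6 in WT control. Plasmacytoid dendritic cells are the main makers of interferon alpha, and their list holds the member Bst2. Its 6 markers summed to 175 CPM in Irf4-/- injected against 183 in Irf4-/- control and 213 CPM in WT injected against 193 in WT control. Runx2 and Tcf4 made up most of each sum, at 105 and 57.0 CPM on average. Siglech, Ccr9 and Spib averaged 0.571, 0.530 and 3.18 CPM, so the sum says little about the number of such cells. Ribosomal protein genes took 4.72% of counts in Irf4-/- injected against 4.34% in Irf4-/- control and 5.99% in WT injected against 4.83% in WT control. The part of any of these in the members' ratios was not tested.

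By genotype the 40 members lay on both sides of 0 in similar numbers, and the more abundant ones lay more often above it. Among injected mice the median log2 ratio of Irf4-/- over WT was 0.07 over the 40 members, against -0.0030 over all genes, with 18 of 40 below 0 (50.5% of all genes). The counting interval lay above 0 for 17 (25.0%) and below 0 for 8 (25.3%). Among control mice the median was 0.02, against -0.00049 over all genes, with 19 of 40 below 0 (50.1%), 12 intervals above 0 (17.1%) and 6 below (16.6%). At 1.5-fold or more, 4 members were higher (5.88%) and 4 lower (4.95%) among injected mice, and 3 higher (3.88%) and 1 lower (1.67%) among controls. The genotype pairs, which share no library, had opposite signs for 19 members, or 47.5%, against 44.7% of all genes, and were both below 0 for 9, or 22.5%, against 27.9%. Intervals lay above 0 in both pairs for 10 members, or 25%, against 7.67% of all genes, and below 0 in both for Cmpk2 and Slfn5, against 6.42%. The 23 members of at least 20 CPM had medians of 0.13 among injected and 0.05 among control mice, and the 17 members from 1 to 20 CPM had -0.21 and -0.15. Among those 23, intervals lay above 0 for 14 (28.2% of all genes at that level) and below 0 for 3 (30.0%) among injected mice, and above 0 for 9 (18.5%) and below 0 for 3 (21.3%) among controls. In both pairs they lay above 0 for 8 of the 23, or 34.8%, against 8.42% of all genes at that level, and below 0 for 0, against 8.51%.

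Markers of NK cells and of other cells differed with the label as well. Among injected mice the 10 NK cell markers had a median log2 ratio of 0.33, against 0.07 for the members. Of their intervals 6 lay above 0 and 3 below. Among control mice their median was 0.05, with 5 intervals above 0 and 4 below. The 5 erythroid markers, none at 0 in any library, summed to 94.8 CPM in Irf4-/- injected against 16.8 in WT injected and 39.5 CPM in Irf4-/- control against 32.6 in WT control, and the 3 of them measured were all higher among injected mice. The 10 monocyte and macrophage markers summed to 58.9 CPM in Irf4-/- injected against 67.8 in WT injected and 50.9 CPM in Irf4-/- control against 32.1 in WT control, and 8 of 9 measured were higher among control mice. The 6 B cell markers summed to 46.9 CPM in Irf4-/- injected against 26.9 in WT injected and 64.5 CPM in Irf4-/- control against 61.5 in WT control. The 6 dendritic cell markers, most of whose sum is Itgax, which NK cells express too, summed to 1265 CPM in Irf4-/- injected against 698 in WT injected and 1131 CPM in Irf4-/- control against 906 in WT control. The part of any of these lists in the members' genotype ratios was not tested.

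Ifit2 was the 1 member of 40 that rose with the Irf4-/- label in the additive model (1.22% of genes tested), and 0 fell (0.258%). The gene lies at chr19:34550694-34576419 (GRCm38, plus strand, ENSMUSG00000045932). It was at 59.7 CPM in Irf4-/- injected against 35.8 in WT injected, and at 58.2 CPM in Irf4-/- control against 43.5 in WT control. Both libraries labelled Irf4-/- lay above both WT libraries. In log2 terms it rose by 0.58 with an SE of 0.118 (edgeR's quasi-likelihood test, adjusted p = 0.0408), with an adjusted p of 0.0472 by limma-voom and 0.124 by DESeq2, which did not call it. The call thus depends on the tool. At an unadjusted p under 0.05, edgeR had 6 members higher and 2 lower, against 6.03% and 4.38% of genes tested. At an adjusted p under 0.05 DESeq2 (0.117% of genes tested) and limma-voom (0.250%) also had 0 members that fell.

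Usp18 had the pattern of Ifit2, at 17.5 CPM in Irf4-/- injected against 9.27 in WT injected and 18.3 CPM in Irf4-/- control against 12.5 in WT control. Its ratios were 0.91 (0.65 to 1.19) among injected and 0.55 (0.31 to 0.80) among control mice, and its additive effect of 0.73 had an adjusted p of 0.0965 by edgeR. Oas1a was likewise higher in both libraries labelled Irf4-/-, at 0.40 (0.17 to 0.63) among injected and 0.73 (0.54 to 0.94) among control mice, with an adjusted p of 0.153 by edgeR. Phf11b had ratios of 0.45 (0.31 to 0.59) and 0.19 (0.06 to 0.33), and Zbp1 of 0.37 (0.26 to 0.48) and 0.20 (0.09 to 0.30), injected mice first in each. Ifi27l2a, with few reads, had 0.81 (0.15 to 1.59) among injected and 0.66 (0.22 to 1.15) among control mice. The other 5 members with both intervals above 0 (Lgals3bp, Parp14, Parp9, Trim30a and Ifit2 itself) include 4 with ratios of 0.27 or less.

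Slfn5 was lower in both libraries labelled Irf4-/-, at 5.79 CPM in Irf4-/- injected against 11.6 in WT injected and 5.09 CPM in Irf4-/- control against 7.66 in WT control. Its ratios were -0.99 (-1.35 to -0.67) among injected and -0.58 (-0.99 to -0.20) among control mice, and its additive effect of -0.81 had an adjusted p of 0.171 by edgeR. Cmpk2 had ratios of -0.50 (-0.80 to -0.20) among injected and -0.28 (-0.54 to -0.04) among control mice. Oas3 differed among control mice, at -0.72 (-0.92 to -0.52), and its interval among injected mice included 0, at -0.08 (-0.35 to 0.19). Mx1 and Oasl1 had the reverse, at -0.77 (-1.0 to -0.55) and -0.87 (-1.35 to -0.45) among injected mice against -0.0041 (-0.20 to 0.19) and 0.02 (-0.31 to 0.36) among controls. Xaf1 was higher among control mice, at 0.29 (0.15 to 0.42), with 0.08 (-0.07 to 0.23) among injected mice.

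**Figure D5:**
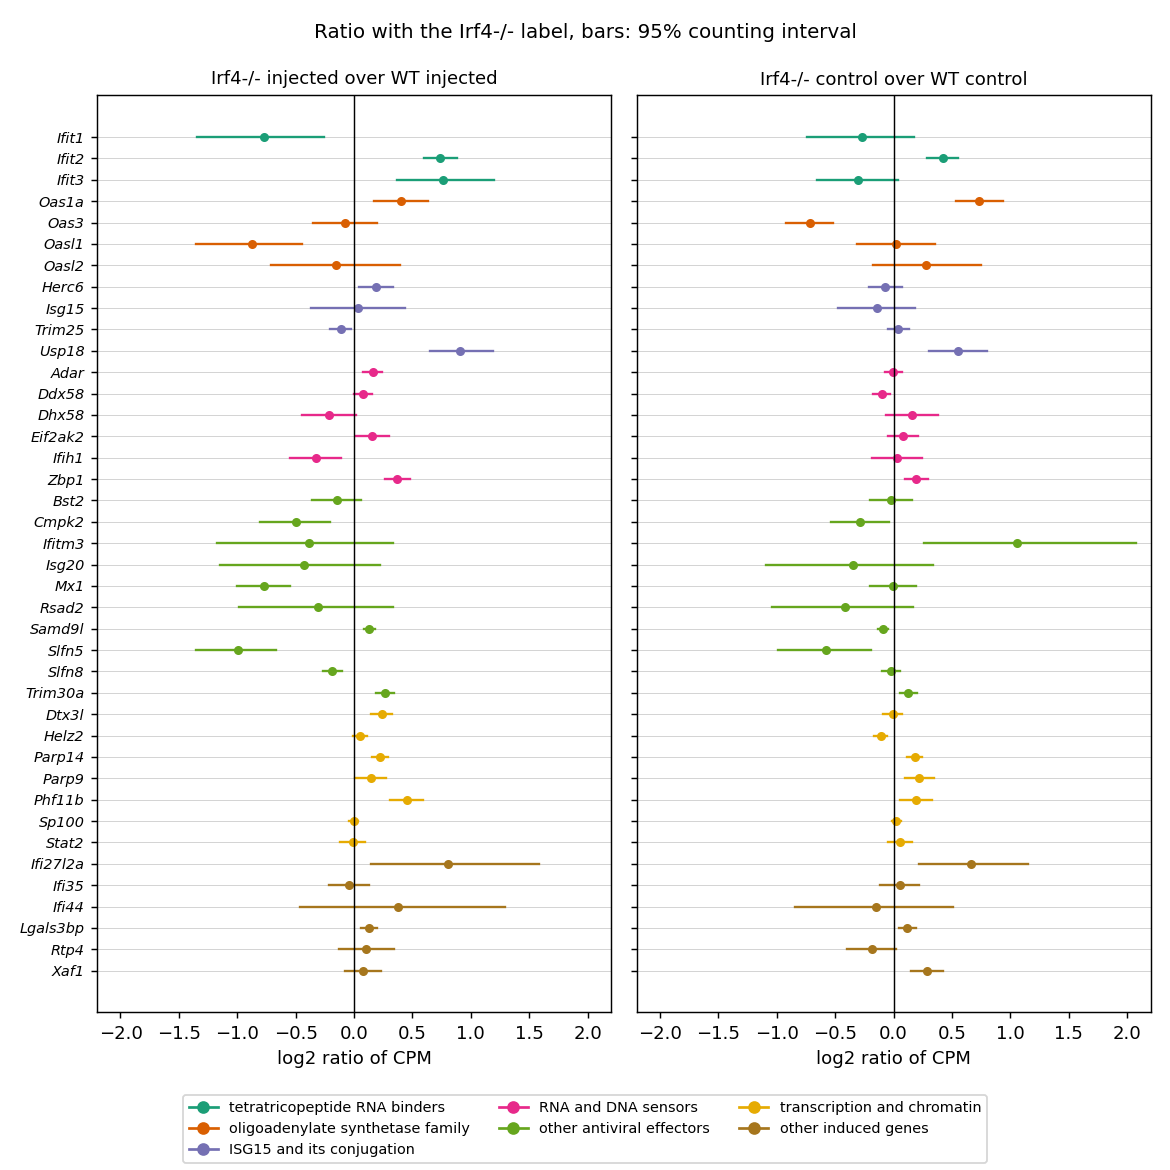
Log2 ratio of CPM, Irf4-/- over WT as labelled, for the 40 interferon-stimulated genes among injected mice (left) and control mice (right), coloured by role, with 95% counting intervals as bars. Of the 40, 12 lie right of 0 in both panels (Ifit2, Usp18 and Oas1a among them), 9 lie left in both (Slfn5 and Cmpk2 among them), and 19 change sides.

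The response to injection was compared between genotypes as the log2 ratio in the Irf4-/- pair minus that in the WT pair. With 4 libraries no residual degree of freedom is left for a test of this difference, and its 95% intervals cover counting error only. Ifit3 had the highest difference among members of at least 5 CPM, at 1.07 (0.55 to 1.59), followed by Oas3 at 0.64 (0.30 to 0.97). The lowest were Oasl1 at -0.90 (-1.44 to -0.35) and Mx1 at -0.76 (-1.06 to -0.47). Members of one family were thus found at both ends, Oas3 and Oasl1 among them. Samd9l had a narrow interval, at 0.22 (0.16 to 0.29), and Ifitm3, at under 5 CPM, had -1.44 (-2.54 to -0.34).

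Upstream of the members, no transcript of Ifnb1, Ifna1, Ifna2, Ifna4, Ifna5, Ifne or Ifnk, the type I interferon genes looked for, was counted in any library. A count of 0 allows up to 0.161 CPM in both injected libraries, 0.189 CPM in Irf4-/- control and 0.142 CPM in WT control. Ifng, the type II interferon that NK cells make themselves, was at 49.0 CPM in Irf4-/- injected against 62.3 in Irf4-/- control, and at 40.2 CPM in WT injected against 61.8 in WT control. The 2 chains of the type I receptor differed little. Ifnar1 was at 192 CPM in Irf4-/- injected against 206 in WT injected, and at 193 CPM in Irf4-/- control against 198 in WT control. Ifnar2 was at 78.5 to 84.8 CPM. This did not hold for Ifngr1, also among the receptors listed. It was at 511 CPM in Irf4-/- injected against 585 in Irf4-/- control, and at 946 CPM in WT injected against 530 in WT control. Of 27 pathway genes outside the member list that were tested (ligands, receptors, kinases, transcription factors, upstream sensors and brakes), 0 rose or fell with injection by edgeR, DESeq2 or limma-voom, and edgeR had 3 higher and 4 lower at an unadjusted p under 0.05, against 7.33% and 6.84% of genes tested. Myd88, the adaptor of Toll-like receptors, rose with the Irf4-/- label by 0.62 on the log2 scale with an SE of 0.10 (edgeR, adjusted p = 0.0118). Irf9, the DNA-binding subunit of ISGF3, was at 114 CPM in Irf4-/- injected against 86.2 in WT injected and 131 CPM in Irf4-/- control against 113 in WT control. The median ratio of the 27 genes with injection was -0.03 in the Irf4-/- pair and 0.01 in the WT pair, against -0.21 and -0.28 for the members. The lists within the 27 differed. The 7 kinases and transcription factors had medians of -0.04 in the Irf4-/- pair and -0.22 in the WT pair. In each pair 6 of these 7 lay below 0, with 3 and 6 intervals below 0 (19.0% and 28.0% of all genes). In the WT pair all 5 measured receptors and 4 of 5 brakes lay above 0, against 1 and 3 in the Irf4-/- pair.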

How the data were processed

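RNA of sorted splenic NK cells was sequenced in 4 libraries, 1 per group, with SMARTER mRNA libraries, per the labels' protocols. The authors deposited raw read counts of each gene and, from them, FPKM. For 72455 of 72455 values above 0 the deposited FPKM gave back a whole gene length, within 0.01 bp, when solved with the count and the library total. The submitters' processing notes name TopHat, edgeR and mm10, which is GRCm38, and the sources used here do not give the annotation or strand setting. Identifiers were named from GENCODE: 34490 of 35275 matched, and the other 785 still count in library totals.

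Groups came from the sample titles. The members and lists were chosen with earlier results of these data known. Counts were scaled by TMM in edgeR 4.0.16 (R 4.3.3) on the genes tested. Pair ratios used a prior count of 2 and exact (Clopper-Pearson) 95% counting intervals. A member was counted past the fold at 1.5-fold or more with an interval excluding 0 and a mean of at least 1 CPM. The additive model had genotype and injection as terms over the 11998 genes that reached 1 CPM in at least 2 libraries (glmQLFit, glmQLFTest, two-sided, Benjamini-Hochberg at 0.05). It left 1 residual degree of freedom, with a prior of 9.62 and 9.98% as biological coefficient of variation. No label names separate animals, so p-values measure the spread between these libraries alone, which may be technical. The difference of response carries a Wald interval of counting error. The fit and the ratios were tested on simulated data.

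Printed in every library were, per pair, the 4 members with the largest ratio in each direction among the 33 of at least 5 CPM, every member the model called, and the 5 with the highest mean FPKM, 20 members in all; others were named as members. The count of other pathway genes by genotype is not reported here. The limit that 0 counts allow was set at 3 counts. Near-identical copies were found as shared stretches of 50 bases of transcript. Alternatives were median-of-ratios, upper-quartile and total-count scaling, other minimums, other folds, a prior count of 0.5, deposited FPKM (pseudocount 0.1), copies left out, DESeq2 1.42.0, limma-voom in limma 3.58.1 and the other term left out. Chosen after seeing the data were TMM over all genes, the counts over both pairs of a contrast and their settings, and WT injected left out.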

Additional observations from a re-analysis of the deposited data

Results flagged for a closer look

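Ddx58 and Samd9l had a genotype ratio with opposite signs in injected and control mice, with counting intervals that excluded 0 in both. For Ddx58 the log2 ratio of Irf4-/- over WT, as labelled, was 0.078 (0.00043 to 0.16) among injected mice and -0.10 (-0.17 to -0.03) among control mice. For Samd9l it was 0.13 (0.08 to 0.18) among injected mice and -0.090 (-0.13 to -0.04) among control mice. The differences between injected and control mice were not tested, since each group had 1 library.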

How the results depend on the processing

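No paired analysis was possible because each group had 1 library and the labels gave no replicate numbers to pair; for the same reason no replicate could be left out. In each of the 4 pairs the median ratio of the list stayed within the spread of the members around its main value. This held under every scaling, minimum, prior count and copy setting run. Members of a pair are not replicates, and rescaling moves all their ratios together. TMM factors lay between 0.995 (WT injected) and 1.003 (WT control), so for scaling the check could hardly fail and shows no robustness. In the additive model the members' median injection effect was -0.24 with TMM. It was -0.24 with median-of-ratios, -0.23 with upper-quartile and -0.25 with total-count scaling. Counts of members past a fold were small and moved with the fold and the minimum. At 2-fold they were 0 higher and 0 lower for genotype in injected mice, 1 higher and 0 lower for genotype in control mice, 2 lower for injection in the Irf4-/- pair, and 1 higher and 3 lower for injection in the WT pair. With a minimum of 5 CPM they were 1 higher for genotype in control mice, 4 lower for injection in the Irf4-/- pair, and 1 higher and 3 lower for injection in the WT pair. With TMM over all genes, 2 were lower for genotype in control mice. No share of all genes stands beside these fold counts, so they are not read as a result about the members.

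The model's calls depended more on the setting. The count over all genes at the same setting follows each in brackets, of 11998 tested or of 21484 with no filter. Members that rose with the Irf4-/- label numbered 2 with total-count scaling (204), 0 with DESeq2 (119) and 3 with no filter (319). They numbered 3 with TMM over all genes (299), 0 with the injection term left out (3) and 2 at an adjusted p under 0.1 (190). Members that fell with it numbered 1 with no filter (163) and 1 with TMM over all genes (146). Members that fell with injection numbered 0 with DESeq2 (39), 3 with no filter (299), 2 with TMM over all genes (292) and 0 with the genotype term left out (0). TMM over all genes raised the prior degrees of freedom to 96.8, and over all genes tested it gave 299 that rose and 146 that fell with genotype, against 146 and 31 in the reported fit, and 299 and 292 with injection, against 40 and 47. Without the WT injected library only the control pair is left by genotype, with 19 members below 0, 6 of them with the interval below 0. These counts cannot be smaller than the 9 and 2 that met the rule in both pairs, so this setting tests nothing. Where a value moved, the cause was not tested. No result changed direction under any alternative run.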
